A study of Oryza sativa with 6 samples.

Results

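Tetrapyrroles are the family of compounds that in plants includes chlorophyll, haem and the chromophores of phytochromes. In leaf cells nearly all of their synthesis takes place in the chloroplast. The early steps form a common trunk that makes 5-aminolevulinate and turns it into the ring-shaped protoporphyrin IX. A magnesium chelatase then directs the ring to chlorophyll, and a ferrochelatase directs it to haem. HEMB, URO-D1 and PPOX1, the genes described here, encode enzymes of that trunk. HEMB (LOC4341997), 5-aminolevulinate dehydratase, joins pairs of 5-aminolevulinate molecules into porphobilinogen. URO-D1 (LOC4326635) is a uroporphyrinogen decarboxylase, which trims the side chains of the first closed ring. PPOX1 (LOC4327918), protoporphyrinogen oxidase, makes protoporphyrin IX, the last product shared by the chlorophyll and haem branches, and in plants this enzyme is a target of diphenyl ether herbicides.

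The 3 genes were chosen with earlier results of these data known. The rice array annotation gives 17905 genes a probe set of their own. Taken here was every probe set that this annotation assigns to 1 of the 3 genes alone. Of the 57381 probe sets on the array, 3 met this rule, 1 for each gene. All 3 passed the filter on dim probe sets, which left 28456 tested. The HEMB probe set carries the suffix that Affymetrix gives to probes shared by several transcripts, and the PPOX1 set the suffix for several transcripts of the same gene.

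RNA came from leaves of 4-week-old rice (Oryza sativa), either wild type plants or transgenic plants overexpressing OsCGA1, a GATA transcription factor, with 3 biological replicates in each group and 1 Affymetrix Rice Genome Array per replicate. Both groups grew in days of 16 h (28 °C) and nights of 8 h (23 °C). The promoter of the transgene and the number of transgenic lines are not given in the sources used here. The title of the study names chloroplast development, so the comparison asks whether transcripts of the pathway that supplies chlorophyll differ when the factor is overexpressed.

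Values are linear MAS5 signals, and changes are differences in log2(signal + 3), overexpression minus wild type, with standard errors from limma and n = 3 arrays per group. "Rose" and "fell" mean an adjusted p under 0.05 from limma over all tested probe sets. Pearson correlations between arrays were 0.967 to 0.969 among wild type, 0.947 to 0.967 among overexpression and 0.911 to 0.926 across genotypes, and OsCGA1 itself was not analysed here. In these bulk leaf samples, fewer cells of a type and less RNA per cell cannot be told apart.

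Overexpressing leaves had more PPOX1 transcript, 1.31-fold the wild type level, and this was the only call among the 3 genes. URO-D1 stood 1.23-fold and HEMB 1.15-fold above wild type, and neither passed the test.

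HEMB acts first of the 3. Its signals were 1152.4, 1085.2 and 1096.8 on wild type arrays 1, 2 and 3, against 1144.7, 1414.9 and 1300 on overexpression arrays 1, 2 and 3. The groups overlapped, because overexpression replicate 1 read below wild type replicate 1 while the other two overexpression arrays were above every wild type array. The mean ± SD (n = 3 each) was 1111 ± 35.9 in wild type leaves and 1287 ± 136 in overexpressing leaves. The change was 0.21 ± 0.10 on the log2 scale, with a 95% interval from -0.04 to 0.45 and an adjusted p of 0.21 from limma. The data thus leave room for a change from about none to 0.45. Without overexpression replicate 1 the change was 0.29 (adjusted p 0.111 from limma), and without overexpression replicate 2 it was 0.13 (adjusted p 0.369), so its size depended by over 1.5 times on that array.

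URO-D1 signals were 414.6, 373.7 and 344 on wild type arrays 1, 2 and 3, against 535.4, 423.9 and 438.5 on overexpression arrays 1, 2 and 3. The groups did not overlap, but the lowest overexpression array exceeded the highest wild type array only 1.02-fold. Groups that do not overlap were common on these arrays, at 38.7% of tested probe sets, 16.7% with overexpression higher. The mean ± SD (n = 3 each) was 377.4 ± 35.4 in wild type leaves and 465.9 ± 60.6 in overexpressing leaves. The change was 0.30 ± 0.13, with a 95% interval from 0.002 to 0.59, an unadjusted p of 0.0485 and an adjusted p of 0.149 from limma. An unadjusted p under 0.05 was reached by 33.1% of all tested probe sets. Overexpression replicate 1, the lowest array of its group for HEMB, was the highest for URO-D1, and without it the URO-D1 change was 0.19 (adjusted p 0.34 from limma).

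**Figure D1:**
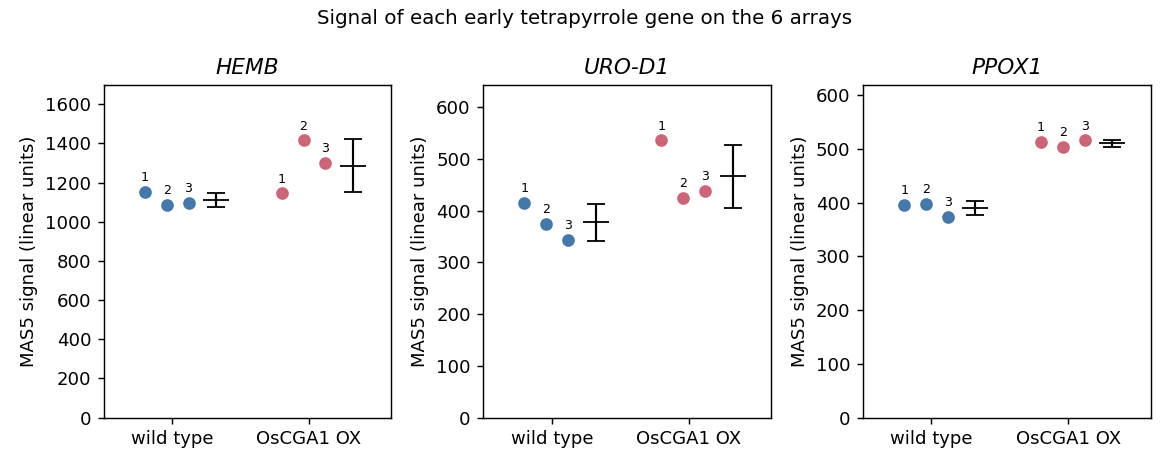
MAS5 signal (linear units, axis from 0) of HEMB, URO-D1 and PPOX1 on each array. Points are single arrays labelled with their replicate number, and the bars beside them are the mean ± SD of 3 arrays. The PPOX1 groups lie apart, wild type between 374 and 398 and overexpression between 502.8 and 515.7, the URO-D1 groups nearly touch, and the HEMB groups overlap. Each gene has its own axis, and levels are not compared between genes.

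PPOX1 had the tightest overexpression replicates of the 3 genes, while in wild type HEMB was slightly tighter, with an SD of 3.23% of its mean. Its signals were 396.3, 398 and 374 on wild type arrays 1, 2 and 3, against 512.2, 502.8 and 515.7 on overexpression arrays 1, 2 and 3. Every overexpression array exceeded every wild type array, the nearest pair by 1.26-fold. The mean ± SD (n = 3 each) was 389.4 ± 13.4 in wild type leaves and 510.2 ± 6.67 in overexpressing leaves, so the SD was 3.44% of the mean in wild type and 1.31% in overexpression.

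PPOX1 rose by 0.39 ± 0.09 on the log2 scale, with a 95% interval from 0.18 to 0.60 and an adjusted p of 0.027 from limma. Calls were frequent in this comparison, since 16.1% of tested probe sets passed (8.65% of tested probe sets higher in overexpression and 7.44% lower), and 1 of 3 genes is to be read against that share. By the size of its change PPOX1 was not extreme, as 16.7% of tested probe sets had a higher change and 10.5% a smaller p. The exact permutation test over arrays gave p = 0.1 for PPOX1 and for URO-D1, the smallest value that 3 arrays against 3 allow (two-sided), and p = 0.2 for HEMB.

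The call of PPOX1 rested on a small margin. limma draws each gene's variance towards that of equally bright probe sets, which gave PPOX1 a standard error of 0.092, whereas its own replicates alone gave 0.031. The plain t statistic, which uses the latter, gave an adjusted p of 0.0257. Leaving out wild type array 1, 2 or 3 moved the adjusted p from limma to 0.0714, 0.0717 or 0.0953. Leaving out overexpression array 1 or 3 moved it to 0.059 or 0.0932, so the call ended in every one of these fits. The count of calls over all probe sets, 4578 with all arrays, was between 2230 and 3299 in the same fits. The call of PPOX1 held without overexpression replicate 2 (adjusted p 0.0311 from limma), where 5533 probe sets were called. The change itself stayed between 0.36 and 0.40 in these 6 fits.

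**Figure D2:**
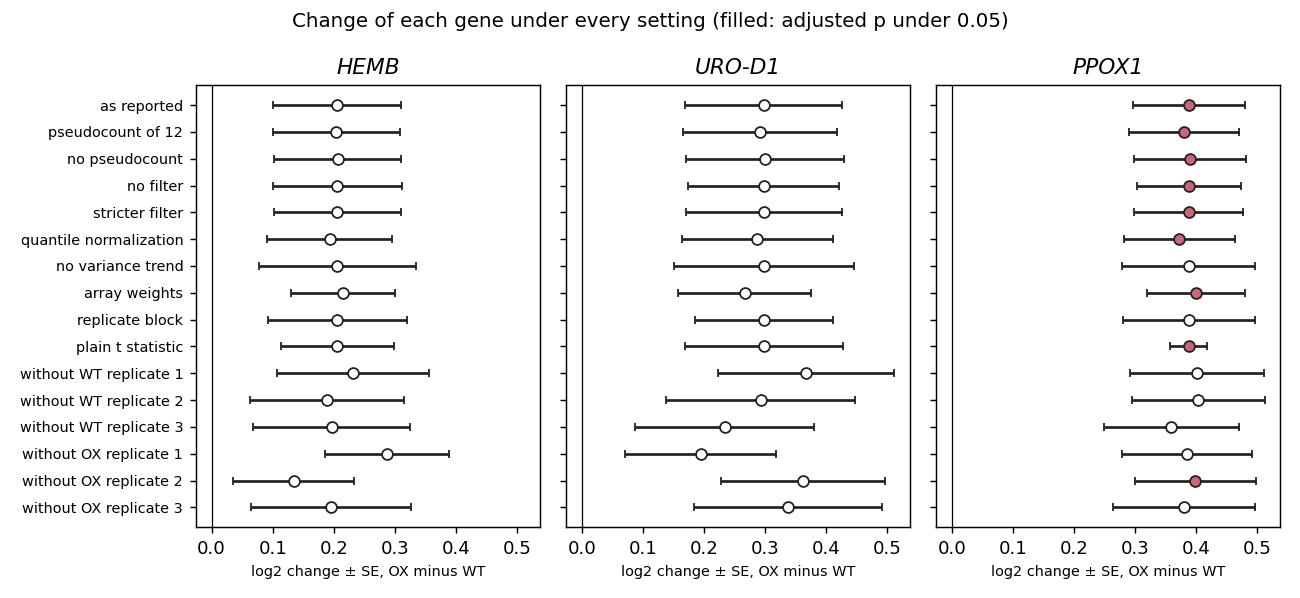
Log2 change (overexpression minus wild type, with its standard error from the fit) of each gene as reported and under 15 alternative settings. Filled points have an adjusted p under 0.05. The PPOX1 change stays between 0.36 and 0.40 and passes in 8 of 15 alternatives, whereas HEMB (0.13 to 0.29) and URO-D1 (0.19 to 0.37) pass in none of the 15.

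Whether the genes differed from one another in their change was tested on the log2 difference between each pair within the same array. The change of PPOX1 exceeded that of HEMB by 0.18 (95% interval from -0.10 to 0.46, exact permutation p = 0.2, two-sided, 0.6 adjusted over the 3 pairs). It exceeded that of URO-D1 by 0.09 (95% interval from -0.23 to 0.41, exact permutation p = 0.5, 0.75 adjusted). For URO-D1 against HEMB the difference was 0.09 (95% interval from -0.46 to 0.65, exact permutation p = 0.9, also 0.9 adjusted). With each array left out in turn, the first difference ran from 0.10 to 0.26 (without overexpression replicates 1 and 2) and the second from 0.03 to 0.19 (without wild type replicate 1 and overexpression replicate 1). Fits of the differences with an array left out were added after the data were seen. No pair differed beyond the spread between arrays, and with 3 arrays against 3 none could have reached a p under 0.05. The call of PPOX1 alone is therefore not shown to set it apart from URO-D1 or HEMB.

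Over all probe sets tested, the change had a median of -0.09. Relative to it, HEMB stood at 0.29, URO-D1 at 0.39 and PPOX1 at 0.48. Quantile normalization, which makes the arrays' distributions alike, gave 0.19, 0.29 and 0.37, so the sign of all 3 did not depend on the scaling, and PPOX1 still passed (adjusted p 0.0304 from limma).

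**Figure D3:**
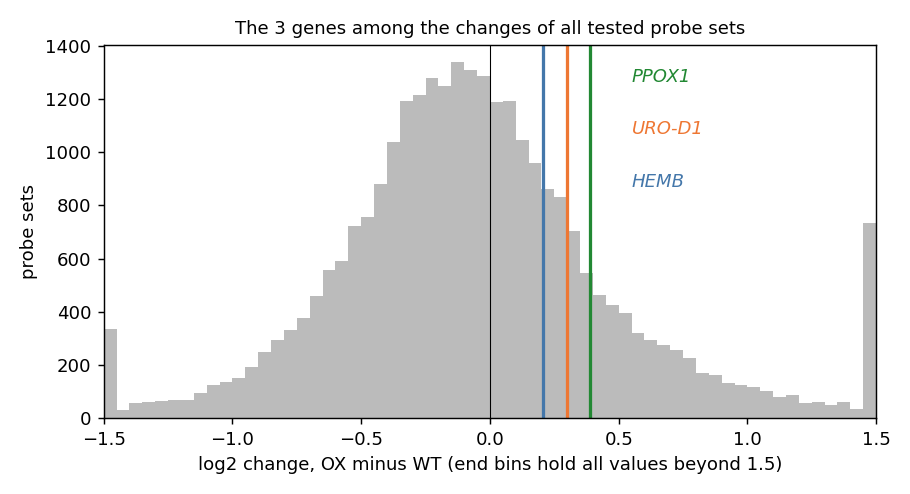
Number of tested probe sets by log2 change (overexpression minus wild type) in bins of 0.05, with the end bins holding all values beyond 1.5 in either direction. Vertical lines mark HEMB (0.21), URO-D1 (0.30) and PPOX1 (0.39), which lie right of the median but within the body of the distribution. A higher change was seen in 26.2%, 20.7% and 16.7% of tested probe sets, in that order.

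The 3 genes were then set beside the rest of the pathway. Of 20 listed tetrapyrrole and chlorophyll synthesis genes, 18 had a probe set of their own, all tested. Apart from the 3 genes described, 0 of the other 15 rose and 0 fell by limma, while 2 of the 15 had an unadjusted p under 0.05. Their median change was 0.01 (0.10 with quantile normalization), against -0.02 (-0.002 with quantile normalization) over the 14616 genes with a tested probe set, of which 19.1% passed. Porphobilinogen deaminase, the step after HEMB, has no probe set of its own in the annotation used. The 18 also hold no gene for ferrochelatase, PPOX2, GUN4 or the methyltransferase, cyclase and divinyl reductase steps of the chlorophyll branch. These counts therefore do not cover the whole pathway.

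In the common trunk, the 5 other genes had changes between -0.02 and 0.06, with a median of 0.01. Because HEMB, URO-D1 and PPOX1 were chosen with earlier results known, their standing above these 5 is no independent result. Quantile normalization moved them to between 0.0016 and 0.21, with a median of 0.12, so their distance from HEMB, URO-D1 and PPOX1 depended on the scaling. GSA, the aminotransferase that forms 5-aminolevulinate, the substrate of HEMB, was at 0.04 ± 0.14, and at 0.16 with quantile normalization. HEMD, the synthase that closes the ring upstream of URO-D1, was at -0.02 ± 0.19 as reported and at 0.0016 with quantile normalization. CPX, the coproporphyrinogen oxidase that acts between URO-D1 and PPOX1, was at 0.004 ± 0.098, with an interval from -0.22 to 0.23, and at 0.12 with quantile normalization.

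Uroporphyrinogen decarboxylase has a second gene, URO-D2. Its signals were 4486, 5019 and 4945 on wild type arrays 1, 2 and 3, against 4166, 6003 and 4562 on overexpression arrays 1, 2 and 3, which overlap. The change was 0.01 ± 0.14, with a 95% interval from -0.31 to 0.34 and an adjusted p of 0.964 from limma. With quantile normalization it was 0.21 ± 0.09 (adjusted p 0.148 from limma), as large as the 0.19 of HEMB in the same fit. Overexpression replicate 1 was the highest array of its group for URO-D1 and the lowest for URO-D2. Without overexpression replicate 2, the highest for URO-D2, the URO-D2 change was -0.14.

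The magnesium chelatase receives the product of PPOX1 on the way to chlorophyll. Its H subunit gene CHLH read 5305, 6814 and 7010 on wild type arrays 1, 2 and 3, against 3616, 5494 and 4166 on overexpression arrays 1, 2 and 3, so overexpression replicate 2 overlapped the wild type range. CHLH was at -0.54 ± 0.17 (adjusted p 0.0707 from limma), the lowest change of the pathway, and did not pass. With quantile normalization it was at -0.33 (adjusted p 0.137 from limma). CHLD and CHLI, the other subunits, were at 0.12 ± 0.17 and 0.26 ± 0.32, with intervals that span 0. The other gene with an unadjusted p under 0.05 was CHLP, the geranylgeranyl reductase that prepares the chlorophyll side chain, at -0.31 ± 0.13 (adjusted p 0.136 from limma), which is named because of its unadjusted p. It was at -0.01 with quantile normalization (adjusted p 0.915 from limma) and at -0.21 without overexpression replicate 1. Over the 8 genes of the chlorophyll branch the changes ran from -0.54 to 0.37 and 4 were positive (6 with quantile normalization), and both haem oxygenase genes lay between -0.12 and 0.01.

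**Figure D4:**
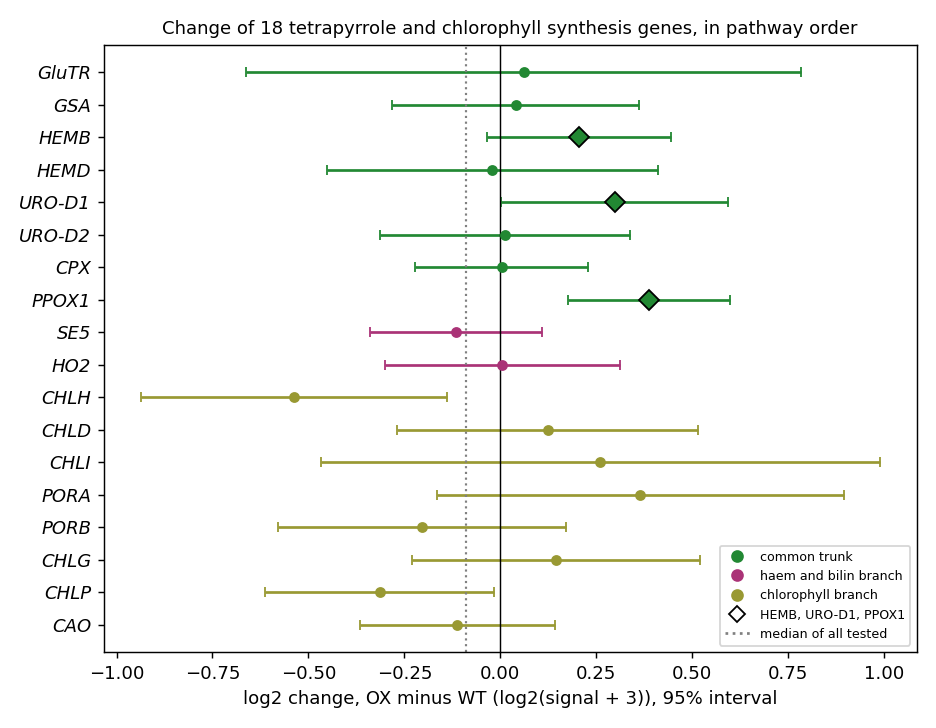
Log2 change (overexpression minus wild type) with its 95% interval from limma for 18 genes from glutamyl-tRNA reductase at the top to chlorophyllide a oxygenase at the bottom. Colours give the part of the pathway, diamonds mark HEMB, URO-D1 and PPOX1, and the dotted line is the median of all tested probe sets (-0.09). PPOX1 has the highest change (0.39) and CHLH the lowest (-0.54). The genes marked by diamonds were chosen with earlier results of these data known.

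Other measures also separated the genotypes, and their part in the PPOX1 and URO-D1 values was not tested. The summed signal of 6 leaf markers (CAB2R, RCABP89, RCABP69, rca, FBPase and RBCS) was 46221 to 54424 in wild type and 37238 to 43184 in overexpression, with 0 of 6 passing and none at 0. That sum was thus lower on every overexpression array, the opposite direction to the 3 genes, on signals without quantile normalization. The 6 markers had changes between -0.32 and -0.29. CHLP, within their range of brightness, was at -0.31, and at -0.01 with quantile normalization. Whether the marker sum depends on the scaling was not tested. The summed signal of 6 root markers was 697 to 732 in wild type and 292 to 333 in overexpression, with 3 of 6 falling. Lsi1, the brightest of the 6, fell from a mean of 416 to 159. YSL15 and IRT1 also fell, and IRT2, NRAMP5 and HKT1;5 did not pass. Over all tested probe sets 8.65% were called higher in overexpression and 7.44% lower. The summed signal of 2 epidermis markers was 1992 to 2059 and 1329 to 1611, with both falling. For 5 markers of dividing cells it was 3483 to 3563 and 3081 to 3204, with 3 of 5 tested, 1 rising and 1 falling. H2B.5, which fell from a mean of 3136 to 2395, made up most of that sum. H2B.10 rose from 369 to 706, and the dim CDKB2-1 was higher in overexpression without passing (9.0 to 27.2). CYCB1-1 and CYCB2-1 were too dim to be tested. The ratio of 3' to 5' signal of an actin control, which rises as RNA degrades, had means of 1.79 ± 0.24 and 2.60 ± 0.70 in wild type and overexpressing leaves (SD, n = 3 each, two-sided exact permutation p = 0.1). It was highest on overexpression replicate 1, at 3.40, the array that was highest for URO-D1 and lowest for HEMB in its group. Another actin pair overlapped between genotypes (exact permutation p = 0.4), but was also highest on overexpression replicate 1, at 5.76. A GAPDH pair, which also overlapped, had mean ratios of 4.74 in wild type and 4.02 in overexpressing leaves (exact permutation p = 0.2). In that pair overexpression replicate 1, at 4.65, was below wild type replicates 1 and 2. The remaining GAPDH pair, with a probe set of mean signal 2.98, was highest on overexpression replicate 1, at 33.3.

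Among 2062 other genes with an informative name, those whose log2 signals followed each gene most closely over the 6 arrays differed between the 3. For PPOX1 they were DAPDC (Pearson r = 0.999), RPL9 (0.996) and CSLE1 (0.994), whose own changes were 0.50, 0.82 and 0.35. For URO-D1 they were PRXIIF (0.987), CYCD3-1 (0.984) and OsSPPL2 (0.983), with changes of 0.45, 0.24 and 0.20. For HEMB they were DI19-3 (0.981), JAZ10 (0.979) and OsTPP1 (0.974), with changes of 0.16, 1.17 and 0.98. DAPDC, RPL9 and CSLE1 rose, and the other 6 did not pass. These r values include the difference between genotypes, rest on 6 arrays and are the top of a long ranking, so they describe likeness on these arrays and carry no test.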

How the data were processed

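The authors deposited probe set intensities on a linear scale, from MAS5 per the submitters' processing notes, measured on 1-colour arrays hybridized with biotin-labelled RNA made from 5 µg of total RNA. After trimming 2% at each end every array had a mean of 100, so no further scaling was applied in the main fit. The medians still differed, at 16.8, 18.2 and 18.7 on wild type arrays 1, 2 and 3 and 14.7, 16.2 and 15.8 on overexpression arrays 1, 2 and 3. Detection calls were not used here. The 187 control probe sets were left out. Probe sets whose mean signal reached 16.8, the median non-control value, were tested on log2(signal + 3) with limma 3.58.1 in R 4.3.3 (genotype alone, eBayes with a variance trend, two-sided, Benjamini-Hochberg). The fit was tested on simulated data. Precision is limited by the number of arrays.

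In the annotation 22436 probe sets name 1 gene and 95 name several, which were not used to name genes. All 17905 genes so named matched RefSeq (ASM3414082v1), from which only names were taken. Pathway members were resolved from symbols and synonyms, and the brightest probe set stood for a gene. CAO also carries the name Lls1 there, so its identity is uncertain. The genes, lists and tests were chosen with earlier results of these data known. Named pathway genes were neighbours or relatives of the 3 genes, genes that passed, and the highest and lowest change. CHLP was named outside this rule, for its unadjusted p under 0.05 from limma. The 3 genes with the highest Pearson r were named for likeness. Same-numbered arrays did not deviate together (r = 0.10, -0.01 and -0.06), so the numbers were not taken as pairs.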

Additional observations from a re-analysis of the deposited data

How the results depend on the processing

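The changes of HEMB, URO-D1 and PPOX1 stayed positive in all 15 alternatives, which altered the pseudocount, filter, normalization, variance model, weights or arrays, and HEMB and URO-D1 passed in 0 of 15. The call of PPOX1 also ended, at a change of 0.39, without a variance trend (adjusted p 0.0671 from limma) and with the replicate block (0.0715), and its standard error rose to 0.109 and 0.108 in these fits. With these 2 settings 0 pathway genes rose. With the replicate block 1 pathway gene fell (CHLH), and with array weights 2 fell (CHLH and CHLP). Array weights put URO-D2 at -0.055 and CPX at -0.020, and quantile normalization put HEMD at 0.0016, GSA at 0.16, CPX at 0.12, URO-D2 at 0.21, CHLH at -0.33 and CHLP at -0.01. The count of calls over all probe sets, 4578 as reported, was 7945 with array weights, 1620 with the plain t statistic and 3342 with the replicate block. It was 2408, 2287 and 2483 without wild type replicates 1, 2 and 3, 2230 without overexpression replicate 3 and 5533 without overexpression replicate 2. The share of calls higher in overexpression was 53.8% as reported, 46.7% with array weights, 47.6% without overexpression replicate 2 and up to 64.1% without wild type replicate 3.

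With each array left out in turn, PPOX1 ran from 0.36 to 0.40, GSA from -0.066 to 0.18, HEMD from -0.19 to 0.070, URO-D2 from -0.14 to 0.12, CPX from -0.038 to 0.074, CHLD from -0.0058 to 0.33, CHLI from -0.12 to 0.49, CHLH from -0.70 to -0.40 and CHLP from -0.43 to -0.21. CHLH and CHLP also fell without overexpression replicate 2 (adjusted p 0.0157 and 0.0341 from limma). The number of pathway genes that rose ran from 0 to 1 and that fell from 0 to 2. The difference between URO-D1 and HEMB ran from -0.092 to 0.23. The alternatives for all 3 pair differences were added after the data were seen. Averaging probe sets per gene was not run for the 3 genes, since each has 1. The cause of these shifts was not tested.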
